A study of Saccharomyces cerevisiae with 12 samples.

Results

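The proteasome is the barrel-shaped protease that destroys ubiquitin-tagged proteins, and in *Saccharomyces cerevisiae* its subunit genes share the transcription factor Rpn4. The genes described here are RPN4 and 32 subunit genes, 33 of the 5656 genes with a probe set of their own, taken by gene name. By the position of the protein they fall into 7 genes of the alpha ring, 7 of the beta ring, 10 of the base, 8 of the lid and 1 regulator. All 33 were measured, so no member was lost to a filter.

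RNA was taken from 12 cultures of the budding yeast laboratory strain S288C, 1 Affymetrix array for each culture, in 4 groups of 3. Cells diluted to an optical density of 0.1 grew for 1 h at 30 °C and then for 5 h with an addition: fenpropimorph (0.313 ppm), tomatine (13.9 ppm), tomatidine (0.625 ppm) or, in the controls, the solvent dimethylformamide alone. Each of 3 days of culture gave 1 array of every group, and an array is named by its group and day. Groups were read from the sample titles, because a further label field gives tomatidine for all samples and the controls too. Each compound was used at 1 dose and 1 time point, so the data give neither a dose response nor a time course.

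The core particle of the proteasome is a stack of rings: outer alpha rings form the gate, and inner beta rings hold the proteolytic sites. The regulatory particle caps it. Its base unfolds substrates with a ring of ATPases, and its lid carries the deubiquitinase that removes the ubiquitin chain. Rpn4 activates the subunit genes through a shared promoter element and is itself degraded quickly by the proteasome, so that a loss of proteasome capacity raises Rpn4 protein and, through it, transcription of the subunits. Tomatine is a steroidal glycoalkaloid of tomato, tomatidine is the same steroid without the sugars, and fenpropimorph is a morpholine fungicide that blocks late steps of ergosterol synthesis.

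Array medians lay between 77.2 and 78.6 signal units, and precision is limited by the 3 arrays in a group. The probe sets that stand for the 33 genes had mean signals from 196.2 (RPT2, the 70.4th percentile of all probe sets) to 1531 (PRE2, the 94.8th percentile). Defining markers of alpha cells, the mating type of this strain, were present in every group: the summed signal of the 4 markers was 11140 to 11250 in control, 8300 to 9095 with tomatidine, 11350 to 11740 with tomatine and 4882 to 5892 with fenpropimorph. The 7 markers of a cells summed to only 185.2 to 221.5 in any array. With fenpropimorph all 4 alpha markers were called lower (limma, adjusted p under 0.05), beside 16.9% of all probe sets. Their log2 fold changes ran from -2.09 for MF(ALPHA)2 to -0.60 for MF(ALPHA)1. Of the 7 a cell markers 1 was called higher, beside 13.4% of all probe sets, and BAR1 had the largest difference (0.39). On the log2 scale the 3′ to 5′ ratio of the array's SPT15 control was 2.21 to 2.53 in control, 1.49 to 2.02 with tomatidine, 2.20 to 2.27 with tomatine and 2.26 to 2.41 with fenpropimorph. For ACT1 the same ratio was 0.33 to 0.38, 0.38 to 0.61, 0.26 to 0.38 and 0.29 to 0.47 in that order of groups, and for SRB4 it was 1.07 to 1.18, 1.14 to 1.35, 1.17 to 1.40 and 1.07 to 1.28. In tomatine 2, 25 probe sets lay at least 1 log2 unit below both other arrays of the group, against 0 to 10 in each of the other 11 arrays. The part of these markers and of RNA quality in the results was not tested.

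RPN4 (YDL020C), the regulator, rose with fenpropimorph and by less with tomatidine. Its signal was 239.7, 262.2 and 226.9 in the control arrays of days 1, 2 and 3. With fenpropimorph it was 488.6, 530.3 and 480.2. Every fenpropimorph array lay above every other array of the study. The rise was 2.06-fold, a log2 fold change of 1.04 ± 0.0902 (standard error, n = 3 arrays a group; 95% interval 0.84 to 1.24; limma, Benjamini-Hochberg adjusted p = 3.88e-06). Day by day the log2 difference was 1.03, 1.02 and 1.08. In a bulk culture, more transcript per cell and more cells that carry it cannot be told apart.

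With tomatidine the RPN4 signal was 314.8, 343.8 and 295.5 on the 3 days, again above all control arrays, in the group whose SPT15 ratios lay below those of control and whose ACT1 ratios lay at or above them. The log2 fold change was 0.39 (95% interval 0.19 to 0.59, limma adjusted p = 0.0326), or 1.31-fold, with daily differences of 0.39, 0.39 and 0.38. This call was lost without control 1 (adjusted p = 0.109), control 3 (0.107), tomatidine 1 (0.0888) or tomatidine 2 (0.149), and with only the 2 compared groups in the fit (0.0683). With tomatine the signals were 263.9, 284.7 and 321.6, which also lay above the control arrays, and the log2 difference of 0.25 (95% interval 0.06 to 0.45) did not pass the test (limma adjusted p = 0.151, unadjusted p = 0.0162). The daily tomatine differences were 0.14, 0.12 and 0.50, so day 3 carried most of the mean. In ascending order the group means were 243, 290.1, 318 and 499.7 for control, tomatine, tomatidine and fenpropimorph (standard deviations 17.9, 29.2, 24.3 and 26.9, n = 3). The tomatine and tomatidine signals overlapped, and these neighbours in the order did not differ by the test (log2 difference 0.13, 95% interval -0.06 to 0.33, limma adjusted p = 0.469). Fenpropimorph exceeded tomatidine by 0.65 (adjusted p = 0.000189) and tomatine by 0.79 (adjusted p = 2.8e-05) on the log2 scale by limma.

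**Figure D1:**
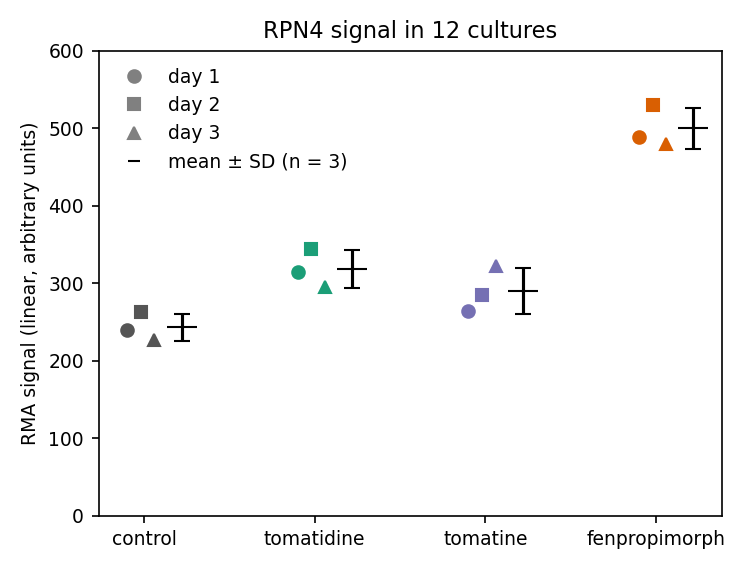
Signal of RPN4 (linear units) in each of the 12 arrays, by group, with the day of culture shown by the symbol and the group mean by a bar. The fenpropimorph arrays lie between 480.2 and 530.3, above all others, and the tomatidine and tomatine arrays overlap each other above the control arrays.

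Fenpropimorph raised most of the subunit genes together, by small and similar amounts. Against control, 28 of the 32 subunits and RPN4 rose and 0 members fell, where 13.4% of all 9275 probe sets tested were higher and 16.9% lower by the same rule (limma, adjusted p under 0.05). All 33 differences were above 0, and for 29 members the fenpropimorph arrays did not overlap the control arrays, against 17.9% of probe sets that lay higher without overlap. The median log2 fold change of the 32 subunits was 0.31, or 1.24-fold, beside a median of -0.07 over all probe sets. Single subunits ran from 0.13 for RPN13 to 0.42 for RPT2, with a standard deviation of 0.0698 between genes. RPN4 rose further on this scale than any subunit. Its rise was the 260th of the 1239 probe sets called higher, whose median was 0.50.

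In the alpha ring, whose subunits form the gate of the core, 5 of 7 genes rose (median log2 fold change 0.28). PRE10 had signals of 470.2, 535.8 and 521.5 in control and of 634.8, 684.2 and 678.5 with fenpropimorph, with no overlap. It rose 1.31-fold (log2 fold change 0.39 ± 0.0727, limma adjusted p = 0.00169). PRE9, the core subunit that yeast can live without, had signals of 438, 456.2 and 429.7 in control and of 515.7, 602.8 and 610.1 with fenpropimorph. Its log2 fold change was 0.38 ± 0.0703 (adjusted p = 0.00153), with the lowest fenpropimorph array still above every control array. PRE8 went from 1201, 1170 and 1203 to 1478, 1476 and 1516, the tightest fenpropimorph triplet of the ring (log2 fold change 0.32 ± 0.0594, adjusted p = 0.00149). PRE6 and PUP2 rose by 0.26 and 0.28. The call of PUP2 was lost without control 2 (adjusted p = 0.0936), fenpropimorph 2 (0.051) or fenpropimorph 3 (0.0896), and with only the 2 groups in the fit (0.0566).

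In the beta ring 6 of 7 genes rose (median log2 fold change 0.31). PRE2, which carries the chymotrypsin-like site, had signals of 1471, 1462 and 1368 in control and of 1717, 1906 and 1814 with fenpropimorph, which did not overlap. It rose 1.26-fold (log2 fold change 0.34 ± 0.0602, limma adjusted p = 0.00121). PRE3, which carries the caspase-like site, had signals of 639.9, 614 and 625.2 in control and of 717.1, 768.8 and 748.4 with fenpropimorph. Its log2 fold change was 0.25 ± 0.0671 (adjusted p = 0.0145), and the call was lost without fenpropimorph 2 (adjusted p = 0.0588). Among the subunits without an active site, PRE7, PUP3, PRE4 and PRE1 rose by 0.32, 0.32, 0.31 and 0.29.

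In the base 9 of 10 genes rose (median log2 fold change 0.30), including all 6 ATPases. RPT2, the ATPase known for opening the gate of the core, had signals of 176.7, 173.9 and 174.4 in control and of 228.8, 238.8 and 233.1 with fenpropimorph. The controls differed by less than 3 units, and RPT2 gave the largest rise of any subunit, 1.33-fold (log2 fold change 0.42 ± 0.0595, limma adjusted p = 0.00024). The other ATPase genes RPT5, RPT4, RPT6, RPT1 and RPT3 rose by 0.36, 0.35, 0.28, 0.28 and 0.27. RPN1 and RPN2, the large scaffolds of the base, rose by 0.31 and 0.36. RPN10, a ubiquitin receptor, had signals of 770.7, 748.1 and 770.8 in control and of 888, 897 and 877.4 with fenpropimorph, with the smallest within-group spread of any member, and rose by 0.22 ± 0.0523 (adjusted p = 0.00787).

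In the lid all 8 genes rose, over a narrow range from 0.27 (RPN8) to 0.38 (RPN6), with a median of 0.31. RPN6, a scaffold that clamps the lid to the core, had signals of 625.5, 594.9 and 641.8 in control and of 771.8, 823.2 and 821.8 with fenpropimorph. Its log2 fold change was 0.38 ± 0.0763 (limma adjusted p = 0.00283). RPN11, the deubiquitinase, went from 477.1, 455.1 and 505.4 to 573, 611.5 and 653.5 (log2 fold change 0.35 ± 0.0725, adjusted p = 0.00302). Neither gene overlapped between the groups. RPN12 rose by 0.34 and the further lid scaffolds RPN5, RPN3, RPN7 and RPN9 by 0.31, 0.31, 0.30 and 0.30. RPN8, the partner of RPN11, lost its call without control 3 (adjusted p = 0.0588) or fenpropimorph 2 (0.059), and RPN3 without control 2 (0.0535) or fenpropimorph 3 (0.0639). In all, 25 of the 29 calls held in every fit that left out 1 array.

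**Figure D2:**
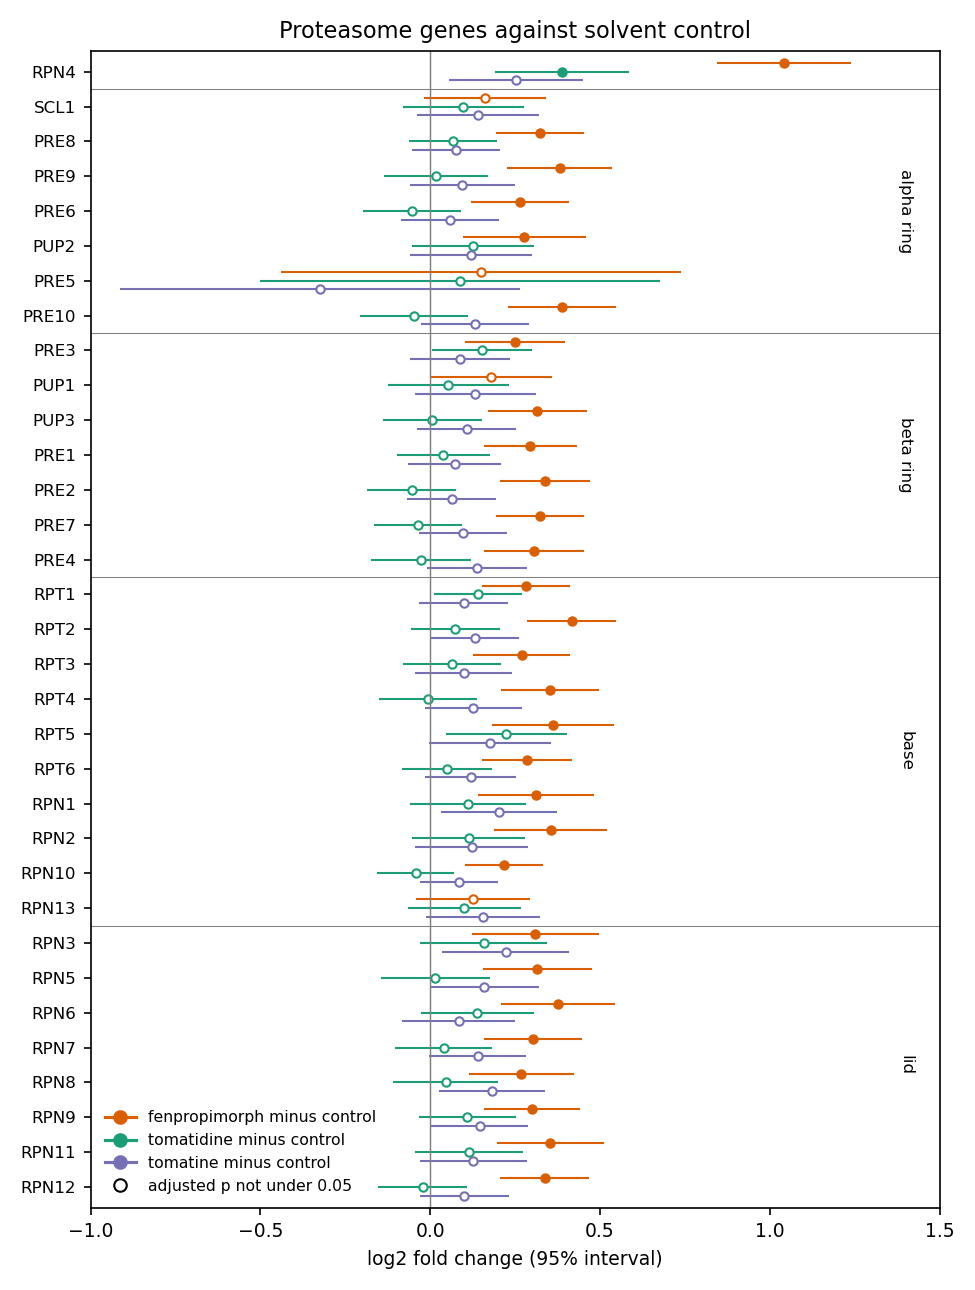
Log2 fold change of each of the 33 genes against control, for the 3 compounds, with 95% intervals from limma; open circles mark changes that did not pass an adjusted p under 0.05. With fenpropimorph the subunits sit between 0.13 and 0.42 and RPN4 at 1.04, while tomatidine and tomatine values scatter closer to 0.

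SCL1, PRE5, PUP1 and RPN13 were the 4 members that did not pass the test with fenpropimorph. They had the smallest log2 differences of all members, and each was measured with more spread than most. The next smallest difference was 0.22 for RPN10. Spread alone did not set these 4 apart: PUP2, RPT5, RPN3 and RPN4 were called with standard errors of 0.0823, 0.0819, 0.0855 and 0.0902, beside 0.0818 for SCL1 and PUP1. For SCL1, an alpha subunit, the signals were 871, 759 and 919.9 in control and 954.3, 915.8 and 973.4 with fenpropimorph, which overlap at 1 array (log2 difference 0.16, 95% interval -0.02 to 0.34, limma adjusted p = 0.164). For PUP1, which carries the trypsin-like site, they were 820, 719 and 791.1 and then 911.9, 933.8 and 795, the last within the control range (0.18, adjusted p = 0.124). The PUP1 call was gained without fenpropimorph 3 (adjusted p = 0.045). RPN13, a further ubiquitin receptor of the base, had 854.3, 819.3 and 946.8 in control and 956.3, 1010 and 889.6 with fenpropimorph. It was lower than its control on day 3 by 0.09 (mean log2 difference 0.13, 95% interval -0.04 to 0.29, limma adjusted p = 0.251). PRE5, an alpha subunit, had 924.7, 824.7 and 907.2 in control and 1040, 1008 and 901.9 with fenpropimorph. Its log2 difference of 0.15 has a wide 95% interval of -0.44 to 0.74, because 1 tomatine array with a signal of 382.7 enters the shared spread. Without that array the adjusted p was 0.178.

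Averaged over all 32 subunits, the log2 level above the control mean was 0.26, 0.31 and 0.32 in the fenpropimorph arrays, and the highest array of another group, tomatine 3, was at 0.15. By sub-complex the fenpropimorph means were 0.28 ± 0.0285 for the alpha ring, 0.29 ± 0.0408 for the beta ring, 0.30 ± 0.0275 for the base and 0.32 ± 0.0655 for the lid (standard deviation, n = 3 arrays). The ranges over the arrays overlapped among all 4, from 0.245 to 0.295 for the alpha ring and 0.246 to 0.370 for the lid, which had the widest range. The mean of the regulatory particle minus that of the core was 0.0206, -0.0046 and 0.0604 with fenpropimorph, which overlaps the control arrays at -0.0161, -0.0053 and 0.0213. In tomatidine the same difference was 0.0357, 0.0779 and 0.0331, above every control array. In tomatine it was 0.0579, 0.1237 and 0.0178, and leaving out PRE5 changed the middle value to 0.0323. No p is given for a mean over the members, since they were chosen as a list.

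**Figure D3:**
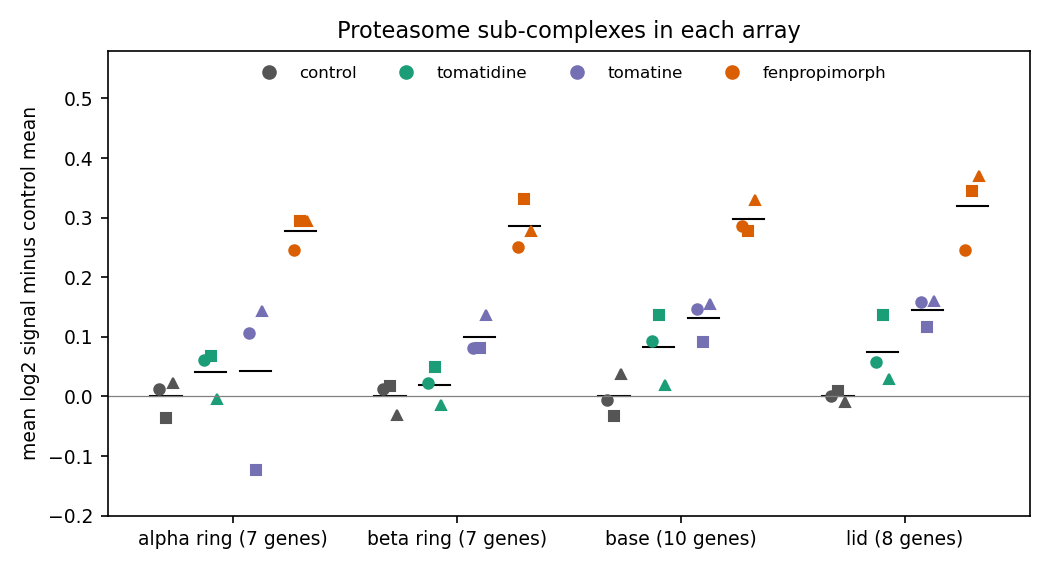
Mean log2 level of the subunits of each sub-complex in each array, as a difference from the mean of the control arrays, with the day shown by the symbol and the group mean by a black bar. The fenpropimorph arrays lie above all others in each sub-complex, and the alpha ring of tomatine 2 lies at -0.12.

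With tomatidine RPN4 was the only member that rose, and 0 fell, where 2.53% of all probe sets were higher and 1.91% lower. At an unadjusted p under 0.05, limma had 4 of the 33 members, a smaller share than the 1559 of all 9275 probe sets. Besides RPN4 these were PRE3, RPT1 and RPT5. The subunit median was 0.06 beside -0.02 for all probe sets, and 25 of the 33 differences were above 0. The groups did not overlap, with tomatidine higher, for 5 of the 33 members, against 10.7% of all probe sets. RPT5, an ATPase, had the highest subunit value. Its signals were 372.8, 337.1 and 367.9 in control and 417.2, 452.8 and 390.4 with tomatidine, which did not overlap, and the log2 difference of 0.22 (95% interval 0.05 to 0.40) did not pass the test (limma adjusted p = 0.186). The other RPT5 probe sets did not share this difference. With mean signals of 394.1, 152.1 and 13.6, they stood at 0.07, -0.03 and 0.06 (limma adjusted p = 0.704, 0.864 and 0.767). PRE3 and RPT1 stood at 0.15 and 0.14 (adjusted p = 0.277 and 0.253). At the other end PRE6 was at -0.05. Tomatidine 3 was the lowest of its group for 23 of the 33 members and tomatidine 2 the highest for 19.

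With tomatine limma called 0 of 33 members in either direction, where 2.59% of all probe sets were higher and 1.77% lower. An unadjusted p under 0.05 was reached by 6 of the 33 members (RPT2, RPN1, RPN3, RPN8, RPN9 and RPN4). That is a share like the one over all probe sets, 1701 of 9275. The subunit median was 0.12, with 32 of 33 differences above 0, beside a median of -0.01 for all probe sets. For 17 members the tomatine arrays lay above the control arrays without overlap, against 14.1% of all probe sets, and these held 13 of the 18 regulatory subunits, 3 of the 14 core subunits and RPN4. RPN3, a lid scaffold, had signals of 353.9, 339.1 and 354.3 in control and of 407.7, 394.8 and 418.9 with tomatine. Its log2 difference of 0.22 (95% interval 0.03 to 0.41) did not pass the test (limma adjusted p = 0.187). RPN1 went from 650.5, 654.4 and 712.5 to 788.8, 759.7 and 772.7 (0.20, adjusted p = 0.186). RPN8, RPN9 and RPT2 stood at 0.18, 0.15 and 0.13. The 3 control arrays serve every compound, so the values against control are not independent of each other.

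The exception in direction among the members was PRE5, at 949, 382.7 and 969.5 with tomatine. Tomatine 2 was less than the lowest of the other 11 arrays, 824.7, while tomatine 1 and 3 were above the control arrays. The mean log2 difference was -0.32 (95% interval -0.91 to 0.26, limma adjusted p = 0.584). PRE5 was the 1 member among the 25 probe sets that were that far down in tomatine 2, and they also held SPG5 of the accessory factors, at 137.7, 55.59 and 128.5. HSC82, of the heat shock list, was low in the same array by slightly less, at 5311, 2559 and 4896. DSK2, of the ubiquitin and Cdc48 system, and MUB1, of the genes that control RPN4, were low there by less again. Their log2 signals with tomatine were 10.29, 9.67 and 10.33 for DSK2 and 7.32, 6.71 and 7.27 for MUB1. SPG5, HSC82, DSK2 and MUB1 are named after their values were seen. Without tomatine 2 limma still called 0 members against control, and the subunit median was 0.13. The PRE5 value set the alpha ring of tomatine: the mean over the 3 arrays was 0.0421 ± 0.145 with PRE5 and 0.1032 ± 0.0442 without it (standard deviation, n = 3; this second version was chosen after the values were seen).

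The compounds were also compared directly in 3 pairs, adjusted over all probe sets in each pair. Their doses in ppm differ, so these are comparisons of the cultures and not of equal amounts of compound. Fenpropimorph stood above tomatidine for 23 members and below for 0, where 13.5% of all probe sets were higher and 17% lower. The subunit median of this log2 difference was 0.24 beside -0.04 for all probe sets, and the called subunits were 4 of the alpha ring, 5 of the beta ring, 6 of the base and 7 of the lid. Against tomatine, fenpropimorph was higher for 16 members and lower for 0, where 15.9% of all probe sets were higher and 22.5% lower. Here the subunit median was 0.18 beside -0.05, and 4, 4, 4 and 3 subunits of those sub-complexes were called. The count of 16 was 9 without tomatine 1, 10 without tomatine 2 and 9 without fenpropimorph 2.

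Tomatidine and tomatine, which differ by the sugar chain, did not differ by the test for any member. Limma called 0 of 33, where 2.89% of all probe sets were higher with tomatidine and 2.2% lower. An unadjusted p under 0.05 was reached by 4 of the 33 members, a smaller share than the 1793 of all 9275 probe sets. Those 4 were PRE10, PRE7, PRE4 and RPN10, all lower with tomatidine, and 26 of the 33 differences had that sign. PRE10 had signals of 505.1, 478.7 and 491.1 with tomatidine and of 532, 538.1 and 602.7 with tomatine. RPN10 had 723.4, 763.1 and 736.3 against 811.3, 805.9 and 809.2. Neither pair of groups overlapped. The subunit median of tomatidine minus tomatine was -0.07 beside -0.02 for all probe sets, and RPN4 leaned the other way, with the interval of -0.06 to 0.33 given above.

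Across the 12 arrays, with the groups pooled, most subunits followed the mean of the others. Each subunit's correlation with the mean of the other subunits had a median of 0.889, from 0.21 for PRE5 to 0.979 for RPT2, and RPN13, PUP1 and SCL1 were the next lowest at 0.418, 0.568 and 0.596. These are descriptions across arrays that share days, groups and 1 normalization. The higher level of the fenpropimorph arrays enters each of them, and the PRE5 value includes the tomatine 2 signal of 382.7. Within groups the standard deviation on the log2 scale had a median of 0.0672 over the members, from 0.0247 for RPN10 to 0.392 for PRE5. Some arrays shifted for many members at once. Tomatine 2 was the lowest of its group for 20 of the 33 and fenpropimorph 1 for 18, while fenpropimorph 2 was the highest for 19. Control 2 stood out in both directions, as the lowest of its group for 17 members and the highest for 13.

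**Figure D4:**
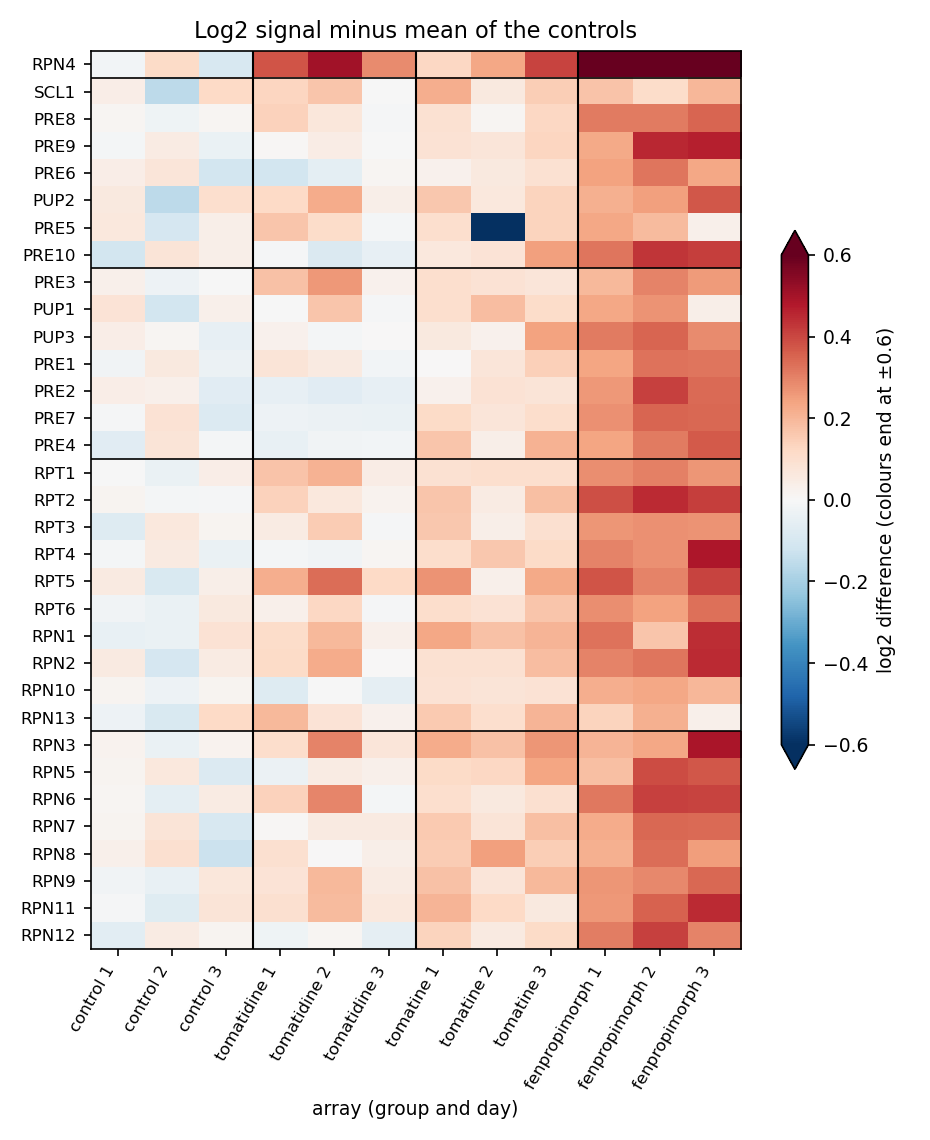
Log2 level of each of the 33 genes (rows) in each of the 12 arrays (columns) minus the gene's mean in control; colours end at 0.6 above and below. The fenpropimorph columns are higher for nearly every gene, RPN4 exceeds the colour scale there, and PRE5 in tomatine 2 is the lowest cell.

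RPN4 itself followed the subunit mean with a Pearson correlation of 0.923, which placed it 46th of 5624 genes. The 10 genes outside the complex most like the subunit mean over the 12 arrays were PCM1 (0.966), ENT1 (0.962), NPL4 (0.957), BDF2 (0.956), YNR048W (0.954), BTN2 (0.951), PYC1 (0.948), YLL056C (0.947), TPO1 (0.946) and SLT2 (0.943). NPL4 is a partner of the Cdc48 segregase, which pulls ubiquitinated proteins out of complexes and membranes. PCM1 acts in the synthesis of chitin precursors, ENT1 in endocytosis, and SLT2 is the kinase of the cell wall integrity pathway. With fenpropimorph PYC1, SLT2 and BTN2 stood 1.20, 1.16 and 0.93 above control on the log2 scale, larger differences than those of the subunits. The 3 fenpropimorph arrays set much of each of these correlations.

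Genes that act with the proteasome gave mixed counts. With tomatidine 2.53% of all probe sets were called higher and 1.91% lower, and with tomatine 2.59% and 1.77%, which are the shares beside the counts of these lists for those compounds. At an unadjusted p under 0.05 by limma, the counts over all 9275 probe sets were 1559 with tomatidine and 1701 with tomatine. Of 16 assembly chaperones and accessory factors 5 rose with fenpropimorph and 0 fell, beside the 13.4% of all probe sets called higher and 16.9% lower (median log2 fold change 0.21, against -0.07 for all probe sets). TMA17, an assembly chaperone, had mean signals of 158.5 ± 26.6 in control and 252.4 ± 4.06 with fenpropimorph (standard deviation, n = 3), and rose by 0.68 ± 0.107 (limma adjusted p = 0.000478). UMP1, the maturation factor of the core, PBA1, a chaperone of alpha ring assembly, and NAS6, a chaperone of the base, rose by 0.36, 0.29 and 0.26 (adjusted p = 0.00324, 0.00322 and 0.00585). The fifth was UBP6, a deubiquitinase bound to the base, at 0.25 (adjusted p = 0.0217), named after its value was seen. UBP6 lost its call without control 1 (adjusted p = 0.0669), control 2 (0.0609), fenpropimorph 2 (0.0676) or fenpropimorph 3 (0.0774). With tomatidine TMA17 fell by 0.42 ± 0.107 (adjusted p = 0.0482), the only call among the 16, and one that held in 3 of the 12 fits without 1 array (adjusted p = 0.138 without control 1 and 0.175 without tomatidine 2). With tomatine limma called 0 of the 16 (2 at an unadjusted p under 0.05). The mean signal of TMA17 was nonetheless alike with the 2 compounds, 117.3 ± 3.58 with tomatidine and 120.1 ± 12.3 with tomatine.

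Of 20 genes of the ubiquitin and Cdc48 system 9 rose with fenpropimorph and 1 fell (median log2 fold change 0.22), beside 13.4% and 16.9% of all probe sets. The polyubiquitin gene UBI4 had mean signals of 311.3 ± 26.2 in control, 303.6 ± 30.8 with tomatidine, 345.7 ± 17.9 with tomatine and 996.2 ± 136 with fenpropimorph. Only the fenpropimorph group stood apart, with a rise of 3.19-fold (log2 fold change 1.67 ± 0.109, limma adjusted p = 3.41e-07). UBC5, a stress-induced ubiquitin-conjugating enzyme, and DOA1, a Cdc48 partner that maintains ubiquitin levels, rose by 0.89 ± 0.0684 and 0.72 ± 0.0824 (adjusted p = 1.46e-06 and 4.23e-05). CUZ1, a Cdc48 and proteasome interactor, rose by 0.57 ± 0.08 (adjusted p = 2e-04) on a dim probe set. The gene that fell was RFU1, an inhibitor of the deubiquitinase Doa4 (-0.52 ± 0.0766, adjusted p = 0.000303). RFU1 rose with tomatine (0.37 ± 0.0766, adjusted p = 0.0231), the only call of this list there, which was lost without control 1 (adjusted p = 0.0646), control 3 (0.06), tomatine 1 (0.0616) or tomatine 2 (0.0709). With tomatidine limma called 0 of 20 (1 at an unadjusted p under 0.05).

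Of 7 genes that control RPN4 at its promoter or through the stability of its protein, 3 rose with fenpropimorph and 0 fell (median log2 fold change 0.17), beside 13.4% and 16.9% of all probe sets. All 3 encode transcription factors with sites known in the RPN4 promoter. PDR1, another transcription factor of this list, was not called (mean signals 286.0 ± 18.9 in control and 317.2 ± 15.7 with fenpropimorph). UBR2, MUB1 and RAD6 were not called either, and RAD6 was the lowest of the list at -0.15. These uncalled genes are named after their values were seen. PDR3, of multidrug resistance, had mean signals of 69.4 ± 3.06 in control, 74.5 ± 5.55 with tomatidine, 72.4 ± 5.07 with tomatine and 136.0 ± 2.59 with fenpropimorph. Its log2 fold change of 0.97 ± 0.0742 with fenpropimorph (limma adjusted p = 1.36e-06) was near that of RPN4. YAP1, of oxidative stress, and HSF1, of heat shock, rose by 0.53 ± 0.106 and 0.26 ± 0.0706 (adjusted p = 0.00279 and 0.0151), and HSF1 lost its call without control 1 (0.0661). With tomatidine and with tomatine limma called 0 of the 7 genes, and 0 reached an unadjusted p under 0.05.

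Of 10 heat shock genes 6 rose with fenpropimorph and 0 fell (median log2 fold change 0.57), beside 13.4% and 16.9% of all probe sets. The small heat shock proteins HSP26 and HSP42, the disaggregase HSP104 and the aggregate-sorting factor BTN2 rose by 1.91, 1.42, 1.10 and 0.93 (limma adjusted p = 1.5e-05, 3.3e-05, 1.6e-05 and 9.77e-05). With tomatine HSP26 moved the other way (-1.22 ± 0.194, adjusted p = 0.00978), and the chaperone YDJ1 rose by 0.37 ± 0.0637 (adjusted p = 0.0124; 0.0543 without control 1). With tomatidine SSA4, an inducible Hsp70, fell by 0.33 ± 0.0793 (adjusted p = 0.0379), a call that held in 3 of the 12 fits without 1 array and was lost without any 1 control array (0.101, 0.0974 and 0.107) or any 1 tomatidine array (0.13, 0.0922 and 0.0826). The other 8 and 9 genes of the list were not called with those compounds. SSA4 was not called with tomatine, although its mean signal there was 134.8 ± 3.06. In control it was 162.4 ± 3.56 and with tomatidine 129.3 ± 4.48 (standard deviation, n = 3).

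**Figure D5:**
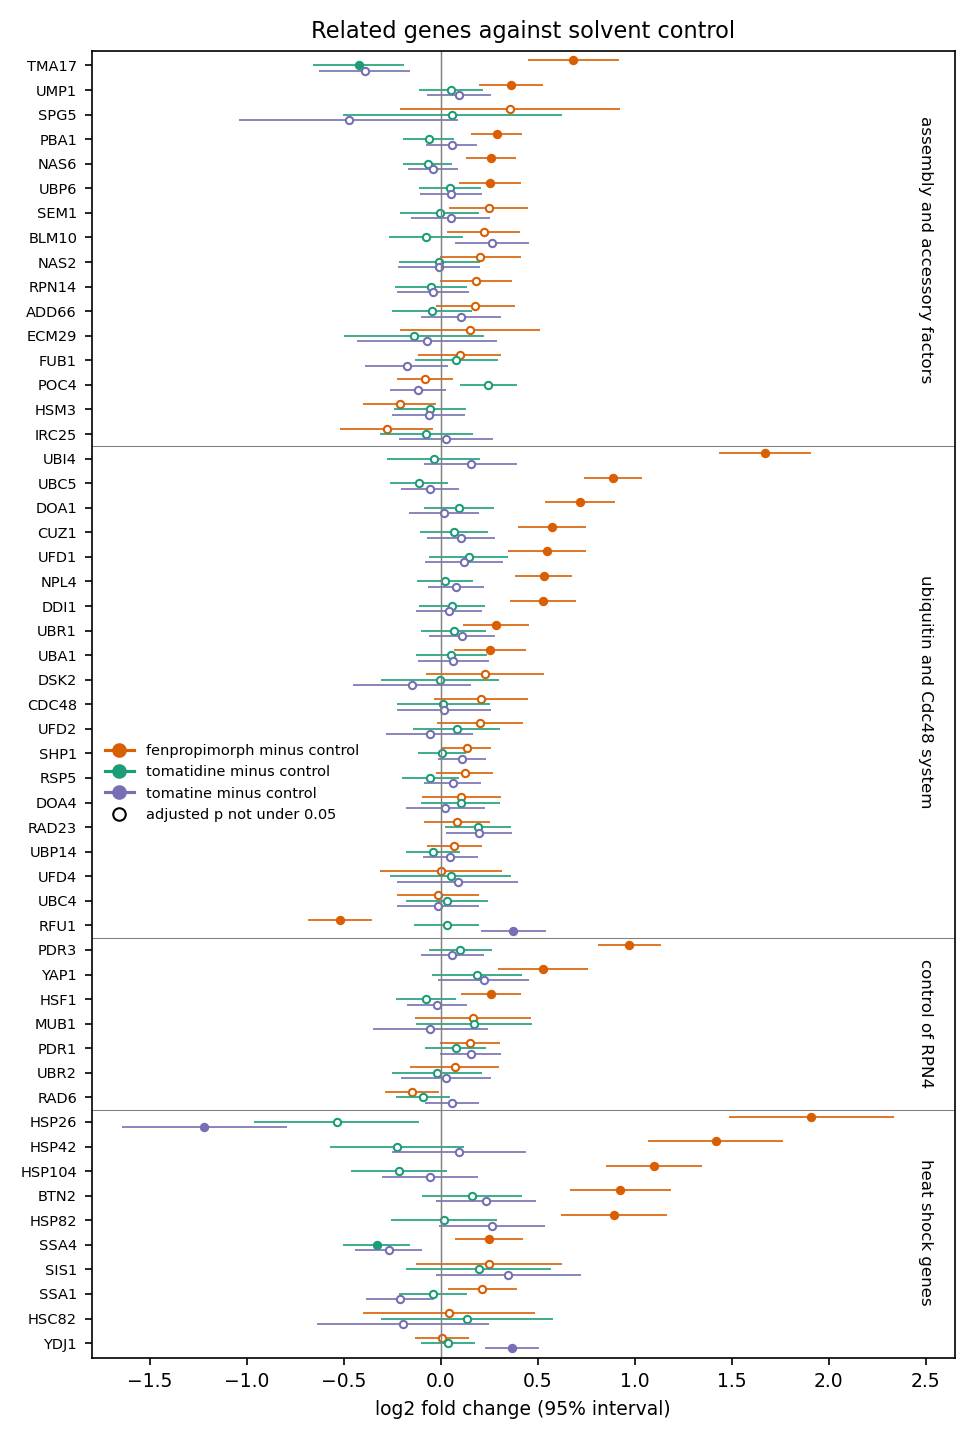
Log2 fold change against control of the genes of the 4 related lists, for the 3 compounds; filled points passed an adjusted p under 0.05. UBI4 and HSP26 are among the highest with fenpropimorph (1.67 and 1.91), and HSP26 is the lowest with tomatine (-1.22).

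For most members 1 probe set gave the value, and 2 members had more. The other probe sets of PRE3 had log2 fold changes with fenpropimorph of 0.42 (limma adjusted p = 0.02) and 0.27 (0.111), beside the 0.25 of the brightest. Those of RPT5 were 0.32 and 0.32 (adjusted p = 0.00652 and 0.00684) beside 0.36, and a further, dim one with a mean signal of 13.6 stood at -0.15 (0.227). The members lie on 13 chromosomes, and only the pairs PRE4 and RPN12, and RPT4 and RPN8, have as little as 1 gene between them in the R64 order of genes. Promoter and protein sequences of the members were not used here.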

How the data were processed

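The authors' deposited values are probe set intensities made with RMA, per the submitters' processing notes; its version, its settings and the genome build are not given in the sources used here. RMA levels the arrays, so changes are relative to the other probe sets. The intensities were linear (1.84 to 21252). Log2 values had been planned for, so log2 was taken. Of 9335 probe sets 60 controls were left out and 9275 tested. In the platform annotation 6504 name 1 gene, 328 several and 2443 none, and the brightest probe set stood for each of 5656 genes. All 33 members matched the S288C gene table (assembly R64).

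One model with 4 group means was fitted to 12 arrays in limma 3.58.1 (R 4.3.3; prior degrees of freedom 3.65, residual 8). Tests were two-sided, and a Benjamini-Hochberg adjusted p under 0.05, over 9275 probe sets, counted as a call. The 95% intervals are not adjusted. The method was tested on simulated data. Figures used matplotlib 3.10.9 (Python 3.11.15).

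The members and lists were chosen with earlier results of these data known. The text names all 33 members, the 4 called genes of each related list with the largest change against control, and the 10 genes whose values were most like the subunit mean.

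Replicate numbers stand for the day of culture, per the labels, and so pair the samples. Deviations from the group means correlated at 0.035 on average between arrays of one day (18 pairs, -0.203 to 0.236) and at -0.018 between days (36 pairs). Only the spread between these 3 days enters the p-values. Alternatives were leaving out each array, median centring or quantile normalization, the day as a block, a trended robust prior, array weights, bright probe sets only, averaged probe sets per gene, 1 probe set per gene, only the 2 compared groups, 16 added before the log and a change of at least 1.5-fold.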

Additional observations from a re-analysis of the deposited data

How the results depend on the processing

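Directions of the counts and subunit medians held under every alternative run. Requiring at least a 1.5-fold change left RPN4 as the 1 member called with fenpropimorph against control, 1 against tomatidine and 1 against tomatine, and 0 with tomatidine against control, where RPN4 itself rose by less than that (1.31-fold). With only the 2 compared groups the tomatidine count against control was 0. Quantile normalization moved the subunit median with fenpropimorph from 0.31 to 0.27. Fits without 1 array called 26 to 29 members for fenpropimorph against control, 0 to 1 for tomatidine against control, 17 to 23 for fenpropimorph against tomatidine and 9 to 18 against tomatine, and 0 in the other comparisons. The replicate block, which pairs the arrays by day, gave 29, 1 and 0 members for the 3 compounds against control, with RPN4 in tomatidine at an adjusted p of 0.036, and 20 in place of 23 for fenpropimorph against tomatidine. It changed no other count. Of the calls in the related lists against control, 19 of 24 with fenpropimorph, 0 of 2 with tomatidine and 1 of 3 with tomatine held in every fit without 1 array, a check added after the data were seen. The alpha ring of tomatine stood at 0.10 without PRE5 in place of 0.04. With 3 arrays a group, a subunit difference of the size seen with tomatine did not pass the test, and its absence is not shown. The promoter motif search that had been planned was not run.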
